A study of Mus musculus with 8 samples.

Results

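The genes described here encode the proteins of the mitochondrial ribosome in mouse dermal fibroblasts. They were taken as every gene whose probe sets carry 1 symbol beginning with Mrpl or Mrps and a digit, pseudogenes left out. That gave 73 genes of the 17097 measured, 46 of the large subunit (Mrpl) and 27 of the small subunit (Mrps). Of the 78 RefSeq mouse symbols of this form, Mrpl22, Mrpl45, Mrpl51, Mrps18c and Mrps28 were not analysed here. Transcripts were compared between fibroblasts of 4 old mice, 18 months of age, and 4 young mice, 2 months of age. Each animal had its own Affymetrix array. Per the series' design text, an old and a young mouse were taken on each collection day, but no label says which. The strain, the sex and any genetic modification of the mice are not given in the sources used here. Cells came from skin without its subdermis, digested with collagenase, and were sorted for the surface proteins Pdgfra and CD34 and against CD45, CD117, CD24, CD31 and EpCam. Their RNA was amplified as a whole transcriptome before labelling.

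The mitochondrial ribosome translates the few mRNAs of the mitochondrial genome, all of which code for subunits of the respiratory chain and the ATP synthase. Its rRNAs are made inside the organelle, while all of its proteins are encoded in the nucleus, made in the cytosol and imported. Some descend from the bacterial ribosome and others were added in mitochondria, whose rRNAs are shorter than those of bacteria. Dermal fibroblasts make and maintain the collagen matrix of the skin.

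Values are normalized log2 levels, so a difference of 1 is a doubling. A probe set's level depends on its probes, and levels are therefore compared between animals and not between genes. Where a gene had several probe sets, the one with the highest mean on the 8 arrays stood for it. Of the sorting markers, Cd34 (11.68 in old and 11.73 in young, mean of 4) and Pdgfra (8.52 in old and 8.36 in young) were present, while Ptprc and Kit lay at 3.88 and 3.72 in old and at 3.71 and 3.63 in young. Cd24a, whose protein was sorted against, stood at 6.60 in old and 7.27 in young. The mean level of 8 keratinocyte markers was 7.30 to 8.44 on old arrays and 6.78 to 7.70 on young arrays, with Krt5 and Krt14 called higher, 1 marker called lower and Epcam at 4.43 to 4.99 in old and 4.19 to 4.32 in young. Of 6 leukocyte markers, Lyz2 and Tyrobp were called higher, and the mean level of the 6 was 5.14 to 5.34 in old and 4.78 to 4.94 in young. Of 7 fibroblast markers, Cd34 and Pdgfra among them, Col3a1 was called lower (12.29 in old and 12.57 in young) and 6 did not pass. The mean level of the 7 was 11.23 to 11.28 in old and 11.27 to 11.39 in young. Of the other cell type markers, the endothelial Tie1 was higher (4.38 in old and 4.03 in young) and the melanocyte Mlana lower (4.33 in old and 4.90 in young). The pericyte marker Rgs5 stood at 4.86, 4.95, 6.93 and 4.96 in old, against 4.3, 4.49, 4.04 and 4.08 in young, with old 3 far above the others. Pecam1, the gene of CD31, had means of 5.44 in old and 5.07 in young. Neither Rgs5 nor Pecam1 passed. The part of these other cells in the results below was not tested. In sorted cells measured in bulk, fewer cells of a type and less RNA per cell cannot be told apart.

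Most mitochondrial ribosomal protein transcripts stood lower in old than in young fibroblasts, by small amounts. Of the 73 genes, 54 had a negative difference, and the median difference was -0.11, against 0.01 over all 17097 genes. With limma and Benjamini-Hochberg adjustment over all genes (threshold 0.05), 15 of the 73 were lower in old fibroblasts (20.5%, against 7.66% of all genes) and 3 were higher (4.11%, against 9.87% of all genes). Calls in either direction made up 17.5% of all genes. The remaining 55 genes did not pass. In 19 genes every old animal lay below every young animal, which held for 9.66% of all genes, and in 4 every old animal lay above, which held for 11.7%. At an unadjusted p under 0.05 in limma, 27 were lower and 5 higher, against 2239 and 2837 of all 17097 genes.

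Because most of these genes are well expressed, the same shares were also taken among the 6756 genes with a mean level of at least 7, a cut chosen after seeing the data. There, 13 of 63 mitochondrial ribosomal protein genes were lower (20.6%), against 12.3% of all such genes, and 3 were higher (4.76%), against 16.6%. Calls in either direction came to 28.9% of genes at this level. Every old animal lay below every young one in 16 of the 63, against 14.3% of all such genes, and above in 4, against 19.8%. At an unadjusted p under 0.05 in limma, 23 of the 63 were lower and 5 higher, against 1220 and 1780 of the 6756. The median difference of these bright genes was -0.11 for the mitochondrial ribosomal proteins and 0.05 for all.

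Non-specific signal also differed between the ages. The mean level of control probe sets that the table names as non-specific, with 18 to 25 G and C bases, was 5.53, 5.82, 6.18 and 5.78 on the old arrays, against 6.62, 6.34, 6.42 and 6.36 on the young arrays. With that level as a covariate in limma, none of the 73 genes was called, and 99 of all genes were lower and 68 higher. The median of the 73 was then -0.19, and 62 differences were negative. At an unadjusted p under 0.05, limma with the covariate gave 21 lower and 1 higher, with no share over all genes taken. Since every old array lies below every young array in this level, the covariate and age cannot be fully told apart. The difference with the covariate was -0.68 for Mrpl20 (-0.64 without it), -0.80 for Mrpl43 (-0.62 without it) and -0.61 for Mrpl17 (-0.46 without it). It was nearer 0 for Mrpl14 (-0.12, against -0.41 without it) and Mrpl19 (0.13, against 0.40 without it). Every call of a named gene below is from the fit without this covariate and is lost with it.

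**Figure D1:**
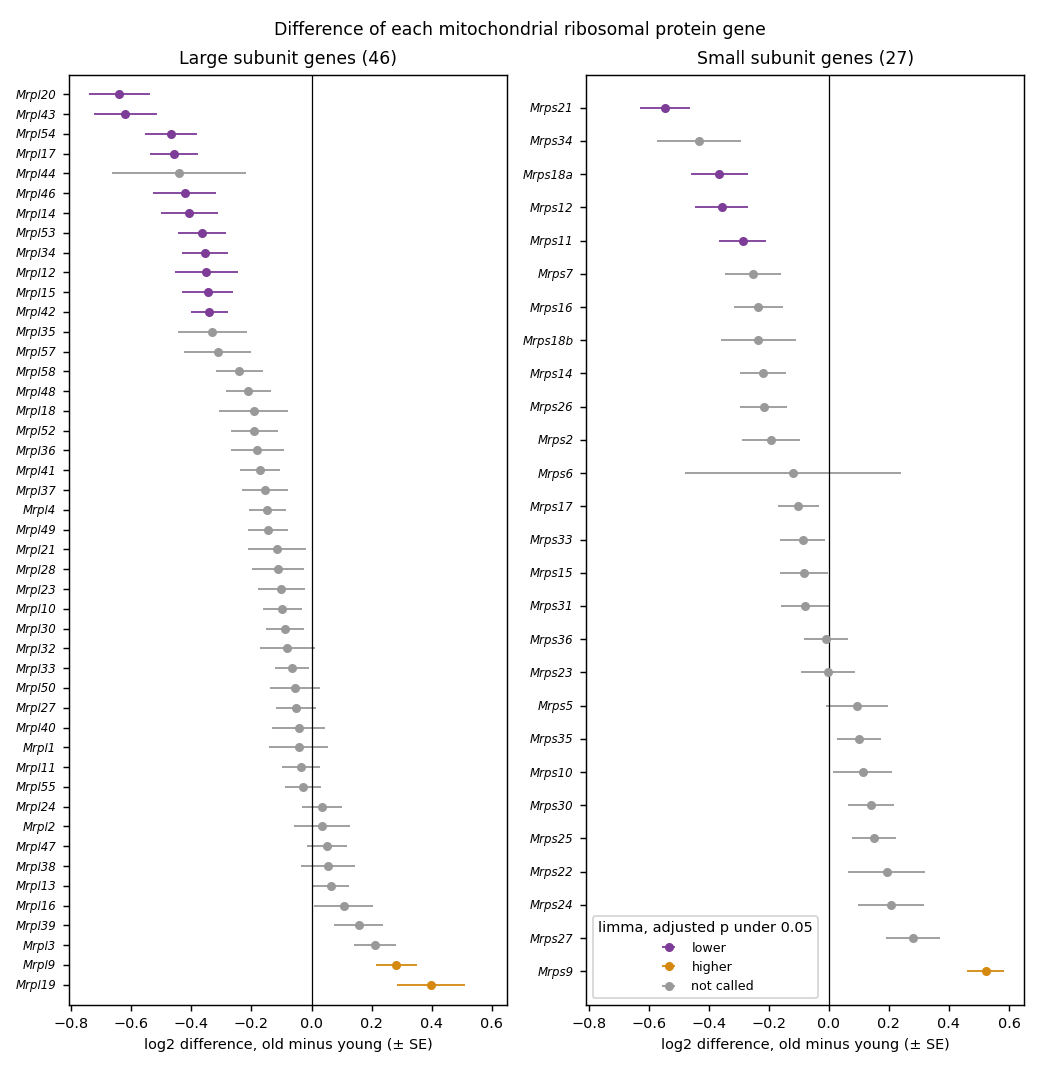
Each point is the log2 difference of 1 gene, old minus young, with its SE from limma, for the 46 large subunit genes on the left and the 27 small subunit genes on the right. Purple genes are lower in old (11 and 4), orange genes are higher (2 and 1), and grey genes did not pass an adjusted p of 0.05.

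In the large subunit, 11 of 46 genes fell in old fibroblasts (23.9%, against 7.66% of all genes and 12.3% of those with a mean of at least 7). Another 2 rose (4.35%, against 9.87% and 16.6% in that order), and the median difference was -0.13. Of the 46, 36 differences were negative. All old animals lay below all young in 12 genes, which held for 9.66% of all genes and 14.3% of those with a mean of at least 7. They lay above in 3, which held for 11.7% and 19.8%. The largest decrease was that of Mrpl20, the homologue of a bacterial protein that binds the large rRNA early in subunit assembly in Escherichia coli. Mrpl20 measured 7.29, 7.34, 7.47 and 7.60 in the 4 old animals, against 7.80, 8.19, 8.12 and 8.15 in the 4 young animals. The groups did not overlap, and young 1 lay closest to the old animals. The difference was -0.64 ± 0.10 (SE), which puts old at 64.2% of the young level (adjusted p = 0.00232). Mrpl20 has 1 probe set on the array.

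Mrpl43 belongs to the proteins added to the ribosome in mitochondria. It measured 8.14, 7.94, 7.91 and 7.63 in old, against 8.46, 8.69, 8.45 and 8.5 in young. Old 4 was the lowest animal, and no old animal reached the young range. The difference was -0.62 ± 0.11 (adjusted p = 0.00331), or 65.1% of the young level.

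Mrpl17, homologue of a bacterial large subunit protein, measured 9.05, 8.84, 8.89 and 8.86 in old, against 9.32, 9.55, 9.28 and 9.32 in young. Young 2 stood above the other young animals, and the groups did not overlap (-0.46 ± 0.08, adjusted p = 0.00362). Mrpl54, a mitochondrial addition, measured 7.17, 7.08, 7.28 and 7.24 in old, against 7.50, 7.87, 7.61 and 7.66 in young. All old animals were below all young (-0.47 ± 0.09, adjusted p = 0.00494). Its second, dim probe set brought the mean of both to -0.22, which did not pass (adjusted p = 0.0588). Mrpl42, also a mitochondrial addition, varied little within an age, with 8.76, 8.71, 8.58 and 8.69 in old, against 8.97, 9.08, 9.05 and 9.0 in young. The gap between the groups exceeded the range within either (-0.34 ± 0.06, adjusted p = 0.00467).

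Mrpl34 is the homologue of a short bacterial ribosomal protein. It measured 8.88, 8.82, 8.80 and 8.83 in old, against 9.11, 9.31, 9.31 and 9.02 in young. The old animals lay within a narrow range below the young (-0.36 ± 0.08, adjusted p = 0.0115). A second probe set of Mrpl34 gave 7.33, 7.11, 7.04 and 7.12 in old, against 7.53, 7.66, 7.77 and 7.40 in young, a difference of -0.44 with no overlap.

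Mrpl12 forms, with Mrpl10, the stalk that recruits translation factors, and human MRPL12 has also been found bound to the mitochondrial RNA polymerase. Mrpl12 measured 7.51, 7.29, 7.62 and 7.17 in old, against 7.69, 7.92, 7.73 and 7.65 in young. Old 3 lay just under young 4, and the call (-0.35 ± 0.11, adjusted p = 0.0462) was lost without any 1 of old 2, old 4 or the 4 young animals, with adjusted p up to 0.118, and with median centring (adjusted p = 0.0541). Mrpl10 measured 8.31, 8.15, 8.39 and 8.29 in old, against 8.37, 8.42, 8.34 and 8.40 in young. Its groups overlapped (-0.10 ± 0.07, adjusted p = 0.364).

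The other 4 large subunit genes that fell stand outside the rule for naming genes and were chosen after their values were seen. Mrpl14, on whose protein the assembly factor Malsu1 docks, measured 8.15, 8.33, 8.5 and 8.11 in old, against 8.71, 8.81, 8.63 and 8.57 in young (-0.41 ± 0.10, adjusted p = 0.0159). Mrpl53 measured 9.28, 9.04, 9.09 and 9.12 in old, against 9.43, 9.66, 9.52 and 9.38 in young (-0.365 ± 0.08, adjusted p = 0.0122). In both, every old animal lay below every young one. Mrpl46 measured 7.29, 6.88, 6.93 and 6.91 in old, against 7.53, 7.51, 7.42 and 7.24 in young, so that old 1 overlapped the young range (-0.42 ± 0.10, adjusted p = 0.0203). Mrpl15, a dim probe set, measured 5.29, 5.21, 5.14 and 5.16 in old, against 5.53, 5.73, 5.58 and 5.34 in young (-0.345 ± 0.08, adjusted p = 0.0199). The Mrpl46 call was lost without any 1 of old 2, old 3, old 4, young 1, young 2 or young 3 (adjusted p up to 0.0579), and the Mrpl15 call without old 3, old 4 or young 3 (up to 0.0555).

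Mrpl9 and Mrpl19 rose, and each is a homologue of a bacterial protein. Mrpl9 measured 9.16, 8.91, 8.99 and 9.07 in old, against 8.78, 8.80, 8.72 and 8.70 in young (0.28 ± 0.07, adjusted p = 0.0186). All old animals lay above all young, but the call was lost without young 3 (adjusted p = 0.0536) or young 4 (adjusted p = 0.0545). The second Mrpl9 probe set gave 7.50, 7.86, 7.89 and 7.69 in old, against 7.59, 7.96, 7.86 and 7.91 in young, a difference of -0.10 with overlapping groups, and the mean of both differed by 0.09 (adjusted p = 0.323). Mrpl19 measured 9.34, 9.23, 9.15 and 8.99 in old, against 8.47, 8.81, 8.97 and 8.87 in young (0.40 ± 0.11, adjusted p = 0.0384). Old 4 and young 3 nearly met, and the call was lost without any 1 of old 1, old 2, old 3, young 1, young 2 or young 4 (adjusted p up to 0.0907). The other 3 Mrpl19 probe sets differed by 0.01, -0.24 and -0.03, so its increase rests on 1 of 4 probe sets, and their mean differed by 0.03 (adjusted p = 0.799). The call was also lost with the replicate number as a block (adjusted p = 0.0564), with median centring (adjusted p = 0.069) and with a further quantile normalization (adjusted p = 0.0709).

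Among core proteins that did not pass, Mrpl3, close to the site of peptide bond formation, measured 8.59, 8.39, 8.48 and 8.46 in old, against 8.17, 8.38, 8.30 and 8.22 in young. All old animals lay above all young, old 2 by the least (0.21 ± 0.07, adjusted p = 0.0649). Mrpl4 measured 9.28, 9.11, 9.10 and 9.13 in old, against 9.29, 9.35, 9.31 and 9.26 in young, with old 1 inside the young range (-0.15 ± 0.06, adjusted p = 0.143). Mrpl23, at the exit of the peptide tunnel, measured 10.04, 9.89, 9.87 and 9.94 in old, against 9.85, 10.06, 10.16 and 10.07 in young. Young 1 was the lowest of all 8 animals (-0.10 ± 0.08, adjusted p = 0.445). Mrpl44, which carries an RNase III fold, had the largest negative difference of the genes that did not pass, with 7.55, 6.86, 7.16 and 6.32 in old, against 7.63, 7.54, 7.29 and 7.20 in young. The old animals spread over more than a log2 unit (-0.44 ± 0.22, adjusted p = 0.218). No filter on low values was applied, and Mrpl47, at 4.62 to 4.79 in old and 4.60 to 4.74 in young, was the only one of the 73 with a mean under 5.

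**Figure D2:**
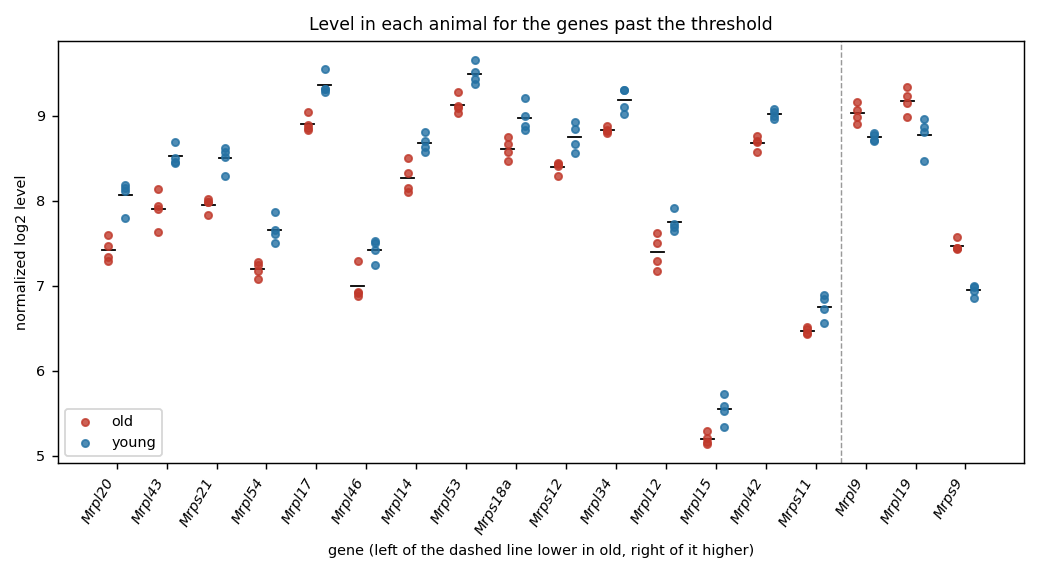
Normalized log2 level of each of the 18 called genes in every animal, old in red to the left of young in blue, with black lines at the means of 4. Left of the dashed line are the 15 genes lower in old, of which Mrpl46 alone overlaps, and right of it the 3 genes higher in old.

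In the small subunit, 4 of 27 genes fell (14.8%, against 7.66% of all genes and 12.3% of those with a mean of at least 7). Another 1 rose (3.7%, against 9.87% and 16.6% in that order), and the median difference was -0.09. Of the 27, 18 differences were negative. All old animals lay below all young in 7 genes, which held for 9.66% of all genes and 14.3% of those with a mean of at least 7. They lay above in 1, which held for 11.7% and 19.8%. Leaving out 1 animal left 1 gene lower without old 4 or young 2, and 2 without young 3 or young 4. Of all genes, 6.67%, 5.75%, 5.77% and 6.22% were then lower, in that order. Mrps21, homologue of a bacterial protein of the small subunit, had the largest decrease. It measured 7.83, 7.99, 7.99 and 8.02 in old, against 8.29, 8.62, 8.58 and 8.52 in young. The groups did not overlap, and old stood at 68.5% of the young level (-0.545 ± 0.08, adjusted p = 0.00188).

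Mrps12 lies at the decoding centre, and its bacterial homologue is a site of streptomycin resistance. It measured 8.43, 8.45, 8.41 and 8.29 in old, against 8.56, 8.85, 8.93 and 8.67 in young (-0.36 ± 0.09, adjusted p = 0.0196). The groups did not overlap, and the call was lost without old 4, young 2 or young 3 (adjusted p up to 0.0569). Its probe set is of a kind whose probes match more than 1 transcript. Mrps11, whose bacterial homologue sits on the platform of the small subunit, measured 6.44, 6.51, 6.43 and 6.49 in old, against 6.56, 6.89, 6.84 and 6.73 in young (-0.29 ± 0.08, adjusted p = 0.0299). It too showed no overlap, but the call was lost without any 1 animal other than young 1 (adjusted p up to 0.0859) and with limma's trend and robust settings (adjusted p = 0.0534). A second, dim probe set of Mrps11 differed by 0.05, and the mean of both by -0.12 (adjusted p = 0.17).

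Mrps9, whose bacterial homologue reaches the tRNA in the peptidyl site, rose with the smallest p of the 73. It measured 7.57, 7.43, 7.44 and 7.44 in old, against 6.94, 7.0, 6.99 and 6.86 in young. The groups lay far apart for their spread, and old stood at 144% of the young level (0.52 ± 0.06, adjusted p = 5.0e-04). Its other probe sets differed in the same direction, one with 7.39, 7.25, 7.27 and 7.34 in old, against 7.0, 7.07, 6.91 and 6.87 in young (0.35), and a dimmer one by 0.15. All 3 probe sets of Mrps9 were thus higher in old on average.

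The homologues of bacterial S18 form a family of 3 in mammals, of which Mrps18a is placed in the large subunit and Mrps18b in the small. Mrps18a measured 8.57, 8.67, 8.75 and 8.47 in old, against 8.83, 9.21, 8.88 and 9.0 in young (-0.365 ± 0.10, adjusted p = 0.0262). Every old animal was below every young one, and the call was lost without old 1, old 4, young 2 or young 4 (adjusted p up to 0.0684). Mrps18b measured 8.10, 7.77, 7.85 and 7.77 in old, against 7.99, 8.45, 7.87 and 8.12 in young (-0.235 ± 0.13, adjusted p = 0.247). Its groups overlapped.

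Mrps34 and Mrps27 are small subunit proteins added in mitochondria, and neither passed. Mrps34 measured 6.80, 6.60, 6.57 and 6.17 in old, against 7.23, 7.02, 6.85 and 6.77 in young, where old 1 lay just above young 4 (-0.43 ± 0.14, adjusted p = 0.0598). Mrps27, of the pentatricopeptide repeat family of RNA-binding proteins, measured 8.21, 7.98, 8.04 and 7.92 in old, against 7.64, 7.96, 7.73 and 7.70 in young, where old 4 lay below young 2 (0.28 ± 0.09, adjusted p = 0.057). Mrps30, placed in the large subunit despite its name, measured 6.57, 6.29, 6.40 and 6.43 in old, against 6.25, 6.42, 6.27 and 6.19 in young, with overlap (0.14 ± 0.08, adjusted p = 0.266). Mrps36 is now assigned to the 2-oxoglutarate dehydrogenase complex of the citric acid cycle. It measured 8.52, 8.26, 8.30 and 8.38 in old, against 8.33, 8.49, 8.33 and 8.35 in young, and the groups coincided (-0.01 ± 0.07, adjusted p = 0.95).

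Mrps6 varied most between animals of 1 age, at 6.82, 8.41, 7.80 and 8.12 in old, against 7.03, 8.14, 8.10 and 8.36 in young (-0.12 ± 0.36, adjusted p = 0.867). It was chosen after its values were seen. Animal 1 of each age was the low one.

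The subunits were then set side by side, as a description. The large subunit's median difference was lower than the small subunit's by 0.04, and 23.9% of its genes fell, against 14.8%. Placing Mrps30 and Mrps18a in the large subunit and leaving Mrps36 out gave 12 lower of 48 in the large subunit and 3 lower of 24 in the small, with medians of -0.13 and -0.095. The difference between the subunits was not tested.

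By origin, 5 of the 18 large subunit proteins added in mitochondria fell (27.8%) and none rose, 16 differences were negative and the median was -0.20. At an unadjusted p under 0.05, limma found 10 of these lower and 0 higher, against 2239 and 2837 of all 17097 genes. Among 28 large subunit proteins of bacterial origin, 6 fell (21.4%), 2 rose (7.14%) and the median was -0.09. For comparison, 7.66% of all genes fell and 9.87% rose, and of those with a mean of at least 7, 12.3% fell and 16.6% rose. In the small subunit the order was the other way round. There, 3 of 14 proteins of bacterial origin fell (21.4%) and 1 rose (7.14%), with a median of -0.16. None of 10 mitochondrial additions was called (median -0.04), with 2 lower and 1 higher at an unadjusted p under 0.05 in limma. Mrps18b was counted among these 10 although it is a homologue of bacterial S18. Mrps18a, which fell, Mrps30 and Mrps36 were put in neither class. Whether these classes differ was not tested.

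Per array, the median of the gene-centred levels of the 73 genes was 0.013, -0.095, -0.041 and -0.104 in old, against -0.015, 0.202, 0.061 and 0.031 in young. Old 1 lay above young 1, so the groups overlapped, and young 2 stood above all others. The large subunit gave -0.001, -0.097, -0.046 and -0.114 in old, against -0.016, 0.193, 0.070 and 0.031 in young. The small subunit gave 0.034, -0.084, -0.036 and -0.084 in old, against -0.014, 0.206, -0.006 and 0.019 in young. In both subunits old 1 was the highest old animal and young 1 the lowest young animal. Without old 4, 9 of the 73 genes were lower, and without young 2, 10 were. Of all genes, 6.67% were lower without old 4 and 5.75% without young 2, against 7.66% with all arrays.

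Of 65 genes for proteins of the cytosolic ribosome, 64 did not pass. In this set 55 differences were positive, and the median was 0.07. Only 1 rose (1.54%, against 9.87% of all genes and 16.6% of those with a mean of at least 7). None fell, against 7.66% and 12.3% in that order. At an unadjusted p under 0.05 in limma, 15 were higher and none lower, against 2837 and 2239 of all 17097 genes. All old animals lay above all young in 21 of them, which held for 11.7% of all genes and 19.8% of those with a mean of at least 7. Its array medians were 0.066, 0.015, 0.022 and 0.066 in old, against -0.040, -0.012, -0.053 and -0.038 in young, with no overlap. The 65 genes are bright (median level 11.7). Whether compression of differences at high signal played a part was not tested. Subunits of oxidative phosphorylation, which include partners of the proteins that the mitochondrial ribosome makes, numbered 81 genes with a median level of 10.1. Of these, 10 fell (12.3%, against 7.66% of all genes and also 12.3% of those with a mean of at least 7). Another 3 rose (3.7%, against 9.87% and 16.6% in that order), and the median difference was -0.06. The mitochondrial ribosomal proteins were not tested against either set.

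**Figure D3:**
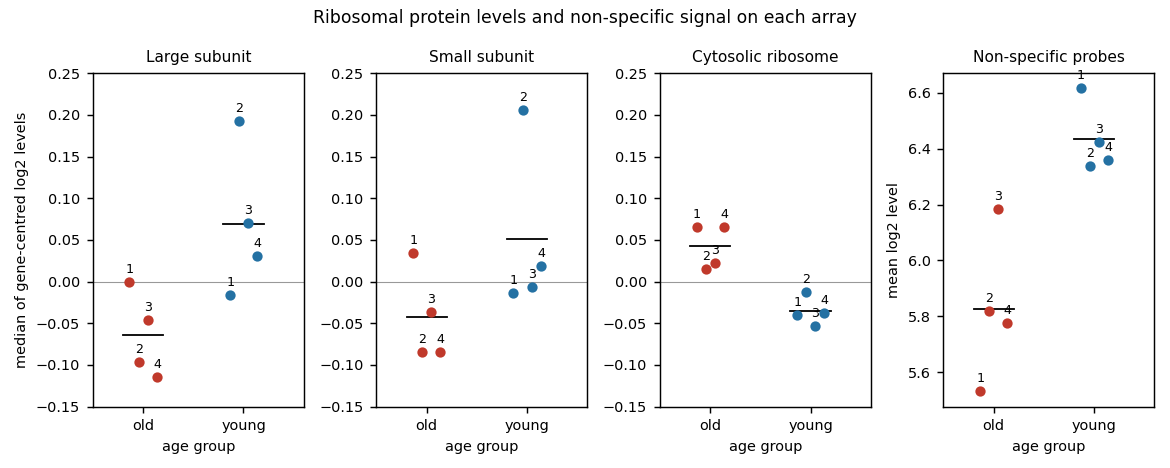
Points are the 8 arrays, labelled with their animal number, old in red to the left of young in blue, with lines at the means of 4. The first 3 panels give the median of gene-centred log2 levels of large subunit, small subunit and cytosolic ribosomal protein genes, and the last gives the mean log2 level of non-specific control probe sets, where every old array (5.53 to 6.18) lies below every young array (6.34 to 6.62).

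**Figure D4:**
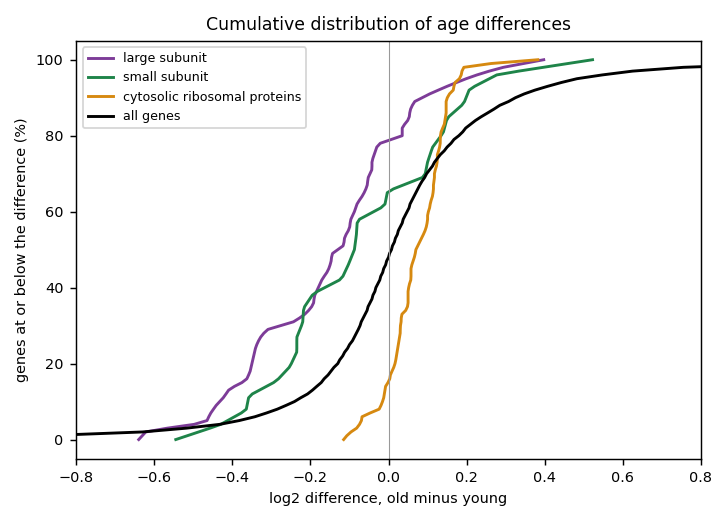
The share of genes (%) at or below each log2 difference, old minus young, is drawn for the large subunit, the small subunit, the cytosolic ribosomal proteins and all genes. The curve of the large subunit crosses 50% at -0.13, that of the small subunit at -0.09, that of all genes at 0.01 and that of the cytosolic ribosome at 0.07.

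Other proteins of the mitochondrial ribosome carry other names, and 4 of 5 listed were measured. Chchd1, a small subunit protein of the twin cysteine family, fell. It measured 9.06, 8.91, 8.96 and 8.90 in old, against 9.40, 9.61, 9.55 and 9.38 in young, with no overlap (-0.53 ± 0.07, 69.4% of the young level, adjusted p = 0.00106). Dap3, a GTP-binding protein of the small subunit, differed by -0.08, the pentatricopeptide protein Ptcd3 by 0.08 and the large subunit protein Gadd45gip1 by -0.12, and none of the 3 passed.

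Of 21 measured genes for ribosome assembly and rRNA modification, 3 fell (14.3%, against 7.66% of all genes) and 1 rose (4.76%, against 9.87%), with a median of 0.00. Mtg2, a GTPase of large subunit assembly, measured 6.06, 5.98, 6.18 and 6.22 in old, against 6.58, 6.43, 6.39 and 6.5 in young (-0.365 ± 0.07, adjusted p = 0.00811). Eral1, the GTPase that accompanies the small subunit rRNA, measured 6.10, 5.81, 5.95 and 5.88 in old, against 6.26, 6.36, 6.33 and 6.17 in young (-0.345 ± 0.08, adjusted p = 0.013). Tfb1m, the methyltransferase of the same rRNA, measured 5.44, 5.22, 5.48 and 5.55 in old, against 5.59, 5.78, 5.84 and 5.73 in young (-0.31 ± 0.09, adjusted p = 0.0321). All 3 showed no overlap, and none passed when all probe sets of each gene were averaged (adjusted p 0.117, 0.0813 and 0.0649). The Tfb1m call was also lost without any 1 of old 1, old 2, old 3, young 2, young 3 or young 4 (adjusted p up to 0.0909). Mrm1, which methylates the large subunit rRNA, rose to 7.38, 7.10, 7.14 and 7.19 in old, against 6.84, 7.02, 6.85 and 6.85 in young (0.31 ± 0.08, adjusted p = 0.0211). Its call was lost without young 1, young 3 or young 4 (adjusted p up to 0.0594).

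None of 10 measured translation factors was called by limma, against 17.5% of all genes in either direction. At an unadjusted p under 0.05, 1 was higher and 0 lower, and the median of the 10 was -0.04. The one with the smallest p was Lrpprc, which stabilises mitochondrial mRNAs (0.25 ± 0.08, adjusted p = 0.0572). Among 11 genes of mitochondrial DNA upkeep and transcription, 2 fell (18.2%, against 7.66% of all genes), both dim. Mterf2 measured 5.21, 5.38, 5.24 and 5.34 in old, against 5.52, 5.48, 5.68 and 5.69 in young (-0.30 ± 0.07, adjusted p = 0.0192), a call lost without old 3, young 3 or young 4 (adjusted p up to 0.0589). Tefm, the transcription elongation factor, measured 4.74, 4.84, 4.90 and 4.74 in old, against 5.08, 5.04, 5.10 and 5.03 in young (-0.26 ± 0.06, adjusted p = 0.0165), a call lost without young 3 (adjusted p = 0.0514). The DNA packaging protein Tfam (0.25 ± 0.10, adjusted p = 0.108) and the RNA polymerase Polrmt (0.24 ± 0.09, adjusted p = 0.0979) did not pass.

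Of 12 measured nuclear regulators of mitochondrial genes, 4 rose (33.3%, against 9.87% of all genes and 16.6% of those with a mean of at least 7), and 8 did not pass. None fell, against 7.66% of all genes, and the median was 0.17. At an unadjusted p under 0.05 in limma, 1 was lower and 6 higher, against 2239 and 2837 of all 17097 genes. Gabpb2, a partner of the ETS factor Gabpa, measured 8.48, 8.36, 8.25 and 8.45 in old, against 7.91, 8.00, 7.85 and 7.75 in young (0.51 ± 0.08, adjusted p = 0.00173). Sp1, a general activator of GC-rich promoters, measured 9.84, 9.36, 9.46 and 9.47 in old, against 9.29, 9.06, 8.96 and 9.07 in young (0.44 ± 0.11, adjusted p = 0.0228). Gabpa itself measured 7.29, 7.27, 7.31 and 7.60 in old, against 7.09, 6.97, 6.98 and 7.11 in young (0.33 ± 0.08, adjusted p = 0.0234). All 3 were above young in every old animal. The Sp1 call was lost without young 2, young 3 or young 4 (adjusted p up to 0.0662), and the Gabpa call without young 2 or young 3 (up to 0.0657) and over the mean of its probe sets (adjusted p = 0.179). The coactivator Ppargc1b measured 4.36, 4.71, 4.41 and 4.65 in old, against 4.39, 4.14, 4.18 and 4.08 in young, a dim probe set with overlapping groups (0.335 ± 0.10, adjusted p = 0.0436). Its call was lost without any 1 of old 2, old 4, young 2, young 3 or young 4 (up to 0.113). Nrf1, for which binding sites were sought below, did not pass (0.17 ± 0.06, adjusted p = 0.0962), nor did Myc (0.50 ± 0.18, adjusted p = 0.0964).

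Promoters of mitochondrial ribosomal protein genes were read from RefSeq's GRCm38.p6 promoter windows, from 250 bases before to 50 after each start, which covered 65 of the 73 genes. The motif of NRF1 (GCGCA, any base, then GCGC) stood in 12 of the 65 (18.5%, against 5.19% of all 27025 genes with a window), the ETS motif that Gabpa recognises (CCGGAAG) in 23 (35.4%, against 9.93%) and the YY1 motif (AAGATGGCG) in 8 (12.3%, against 1.64%). The E-box of Myc (CACGTG) stood in 4 (6.15%, against 8.09%) and CCAAT in 27 (41.5%, against 41.1%). The 27025 genes include some that do not code for protein. Among the 17492 that do, 7.17% held the NRF1 motif, 12.9% the ETS motif, 2.14% the YY1 motif, 8.91% the E-box and 42.3% CCAAT. Both strands were searched, and matches of different motifs may overlap. The median G and C content was 59% in these promoters and 52.7% in all, and its part in the motif shares was not tested. A match is a stretch of letters, not a shown binding site.

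Of 13 genes lower in old with a promoter window, 4 held the NRF1 motif, 7 the ETS motif and 3 the YY1 motif. Of 50 that did not pass, 6, 16 and 5 held these motifs in that order. Both genes higher in old with a window, Mrpl9 and Mrps9, held the NRF1 motif, and neither held the ETS or YY1 motif. These shares were not tested. The following promoters, 5′ to 3′ on the gene's own strand and ending 30 bases past the start, show the motifs in capitals in genes that moved in opposite directions. Mrpl43, Mrps21, Mrps18a and Mrpl17 fell, and Mrpl9 and Mrps9 rose.
Mrpl43 (chr19:45006413-45006588, minus strand): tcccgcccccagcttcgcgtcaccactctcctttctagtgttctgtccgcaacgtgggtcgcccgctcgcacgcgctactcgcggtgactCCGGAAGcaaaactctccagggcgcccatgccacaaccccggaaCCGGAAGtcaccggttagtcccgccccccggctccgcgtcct
Mrps21 (chr3:95871485-95871714, minus strand): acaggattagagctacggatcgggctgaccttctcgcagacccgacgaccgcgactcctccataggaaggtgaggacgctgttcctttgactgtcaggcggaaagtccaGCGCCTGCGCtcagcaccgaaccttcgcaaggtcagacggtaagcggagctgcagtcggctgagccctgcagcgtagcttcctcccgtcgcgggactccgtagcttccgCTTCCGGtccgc
Mrps18a (chr17:46110804-46111033, plus strand): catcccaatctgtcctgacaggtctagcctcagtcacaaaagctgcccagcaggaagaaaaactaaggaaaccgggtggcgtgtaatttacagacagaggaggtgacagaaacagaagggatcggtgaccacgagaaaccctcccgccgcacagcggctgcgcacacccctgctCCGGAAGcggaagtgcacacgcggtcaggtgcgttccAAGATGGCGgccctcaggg
Mrpl17 (chr7:105811058-105811287, minus strand): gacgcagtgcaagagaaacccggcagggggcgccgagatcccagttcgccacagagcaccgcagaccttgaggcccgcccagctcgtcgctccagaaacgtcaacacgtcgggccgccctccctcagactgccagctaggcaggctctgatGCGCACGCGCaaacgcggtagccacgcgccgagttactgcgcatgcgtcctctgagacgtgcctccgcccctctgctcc
Mrpl9 (chr3:94443136-94443365, plus strand): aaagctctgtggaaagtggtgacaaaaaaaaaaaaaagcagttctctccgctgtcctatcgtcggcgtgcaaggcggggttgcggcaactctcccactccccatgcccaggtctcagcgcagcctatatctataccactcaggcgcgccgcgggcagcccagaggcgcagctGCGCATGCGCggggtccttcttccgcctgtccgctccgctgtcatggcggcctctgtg
Mrps9 (chr1:42851033-42851262, plus strand): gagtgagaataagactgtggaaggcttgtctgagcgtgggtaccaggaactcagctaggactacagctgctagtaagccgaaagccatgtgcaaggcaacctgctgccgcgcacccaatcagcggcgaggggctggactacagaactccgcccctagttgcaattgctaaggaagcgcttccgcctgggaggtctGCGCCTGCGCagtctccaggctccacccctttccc

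In Mrpl43 the capitals mark 2 ETS motifs. Mrps21 holds an NRF1 motif and an ETS motif on the opposite strand, and Mrps18a an ETS and a YY1 motif. Mrpl17, Mrpl9 and Mrps9 each show 1 match to the NRF1 motif, with different letters, that of Mrps9 on the opposite strand. The window of Mrpl17 also holds an ETS motif outside the stretch shown.

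Some of these genes start close to a neighbour that runs the other way. How often this holds over all genes was not counted. Of the 65 with a promoter window, 24 had such a neighbour within 1000 bases, with a median of 122 bases between the starts and a minimum of 8. In 1 pair both partners are mitochondrial ribosomal protein genes, Mrpl46 and Mrps11, with 42 bases between their starts, and both fell. The stretch they share is shown from the Mrpl46 side, to 30 bases past either start, and holds none of the 3 motifs, hence no capitals. A promoter window of Mrps11 does hold a YY1 motif, outside the stretch shown.
Mrpl46 (chr7:78783060-78783161, minus strand): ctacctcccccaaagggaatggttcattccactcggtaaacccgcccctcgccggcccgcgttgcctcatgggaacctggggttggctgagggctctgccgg

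Of the 20 other measured partners, none was called (limma, adjusted p), against 17.5% of all genes in either direction. Their mean levels ran from 3.84 (4930473A02Rik) to 11.25 (Fau), so that some were dim. Of the 20, 8 had the sign of the ribosomal gene. The median difference of the partners was 0.01, against -0.12 for the ribosomal genes beside them. The 3 of these ribosomal genes that fell were Mrpl43, Mrpl14 and Mrps12. Mrpl43 starts 116 bases from Twnk, the mitochondrial DNA helicase, which differed by -0.12 ± 0.08 (adjusted p = 0.369). Mrpl14 starts 131 bases from Tmem63b, an ion channel gene, which measured 5.27, 5.27, 5.33 and 5.39 in old, against 5.33, 5.25, 5.34 and 5.26 in young (0.02 ± 0.06). Mrps12 starts 147 bases from Sars2, the mitochondrial seryl-tRNA synthetase, which differed by 0.04. The difference between partners was not tested.

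**Figure D5:**
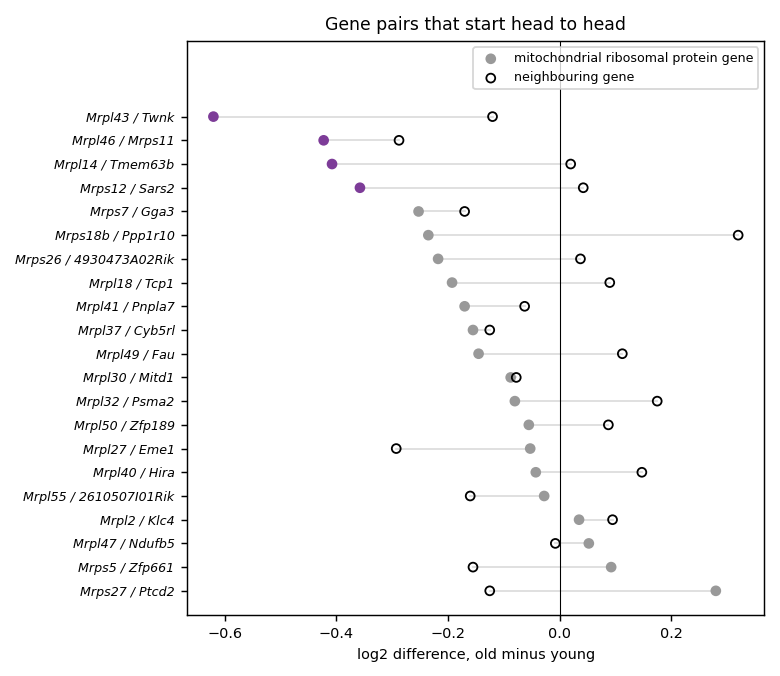
For each head-to-head pair with a measured neighbour, the log2 difference, old minus young, of the mitochondrial ribosomal protein gene (filled, purple where lower in old) and of its neighbour (open) are joined by a line. Mrpl46 and Mrps11 are both members. The other neighbours scatter around 0, with a median of 0.01.

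Where a gene had several probe sets, they did not always move together. The 73 genes had 129 probe sets, and 38 genes had more than 1. Of the 13 further probe sets of the 18 called genes, 7 had the sign of the one used, and of the 7 with a mean level of at least 5, 5 did. Over all 56 further probe sets, 34 did. Another 6 probe sets, shared by Mrps25 and Nr2c2 or by Mrps6 and Slc5a3, were not used.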

How the data were processed

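RNA of sorted dermal fibroblasts was hybridised to 1 array per animal, 8 in all. The authors' deposited values are normalized log2 probe set levels, made by RMA with the R package affy per the submitters' processing notes, versions not given. RMA corrects background, quantile normalizes and summarises probes, so a shift shared by most transcripts is hidden and differences near background or the top are compressed. Of 45141 probe sets, 28898 carried 1 symbol in the platform annotation; its build is not stated in the sources used here.

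The age difference was fitted in R 4.3.3 by limma 3.58.1, with lmFit, eBayes and no covariate, and its 2-sided p-values were adjusted over 17097 genes at 0.05. The number of mice limits the precision. Genes given with every array's value are, per subunit and direction, the 6 called genes of smallest p, the 2 largest differences, and genes picked for roles. Pathway lists give up to 4 called genes. Members and lists were chosen with earlier results of these data known. The fit was tested on simulated data, whose outcome is not given here and on which no result rests. Promoters were searched in Python 3.11.15 and figures drawn with matplotlib 3.10.9.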

Additional observations from a re-analysis of the deposited data

Results flagged for a closer look

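In each group of 4, a single animal was compared with the other 3 by Dixon's ratio (critical value 0.829). Of 146 groups, 11 held such an animal, and chance alone gives about 1 in 20 groups. Young 2 was the highest young animal for Mrpl17 (9.55, others 9.28 to 9.32), Mrpl41 (9.14, others 8.92 to 8.94), Mrpl58 (9.07, others 8.91 to 8.92) and Mrps36 (8.49, others 8.33 to 8.35). Old 1 was the highest old animal for Mrpl4 (9.28, others 9.10 to 9.13), Mrpl46 (7.29, others 6.88 to 6.93) and Mrps9 (7.57, others 7.43 to 7.44). Old 1 was the lowest old animal for Mrpl57 (8.77, others 9.07 to 9.12) and Mrps21 (7.83, others 7.99 to 8.02). Old 4 was the highest old animal for Mrpl24 (10.07, others 9.87 to 9.89) and the lowest for Mrps15 (8.26, others 8.48 to 8.51).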

How the results depend on the processing

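Of the called genes named by the rule, none changed sign under the alternatives run; Mrps30 and Mrps36, which were not called, did. With the non-specific background level as a covariate, the counts of genes lower (15), higher (3), lower in the large subunit (11) and lower in the small subunit (4) all became 0, and the small subunit's median moved to -0.164. Quantile normalizing again gave 24 lower genes, 18 of them in the large subunit, and turned the calls of all genes to 1681 lower and 1490 higher, against 1310 and 1688. Averaging all probe sets left 1 gene higher, while 9.49% of all genes were higher. Leaving out 1 animal in turn gave 9 to 16 lower genes (9 without old replicate 4) and 1 to 3 higher (1 without young replicate 4). In the large subunit 8 to 13 were lower, and in the small 1 to 4. Of all genes, 5.75% to 7.13% were then lower and 7.11% to 10% higher, against 7.66% and 9.87% with all arrays. The large subunit's median then ranged from -0.157 to -0.1025, the small subunit's from -0.108 to -0.051, and their difference from -0.056 to -0.020. With the replicate number as a block, 18 genes were lower and 2 higher, and of all genes 7.42% were lower and 10.8% higher. The labels do not tie the number to a collection day, and the same-numbered correlations (0.285, 0.052, -0.044 and 0.224) did not all exceed 0.1. Of the pathway genes, 6 were lower and 5 higher. Averaging probe sets left 3 lower, the covariate left 0 in either direction, and leaving out 1 animal gave 4 to 6 lower and 1 to 6 higher. Of the 18 called genes, 9 stayed called under every alternative but the covariate: Mrpl14, Mrpl17, Mrpl20, Mrpl34, Mrpl42, Mrpl43, Mrpl53, Mrps9 and Mrps21. The causes of these changes were not tested. Low signal limits Mrpl15 and Mrpl47.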

Other observations

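Some genes that did not pass the threshold nevertheless showed no overlap between the ages, and were chosen after their values were seen. Mrps14 measured 9.57, 9.80, 9.83 and 9.75 in old, against 9.85, 10.07, 9.97 and 9.94 in young (-0.22, adjusted p = 0.0792). Mrps16, whose bacterial homologue helps to fold the small rRNA, measured 8.14, 8.09, 8.08 and 7.90 in old, against 8.16, 8.45, 8.31 and 8.23 in young (-0.235, adjusted p = 0.0769). Mrps26 measured 7.97, 7.92, 8.04 and 7.71 in old, against 8.08, 8.16, 8.09 and 8.18 in young (-0.22, adjusted p = 0.0856). The large subunit genes Mrpl35 (-0.33, adjusted p = 0.0772) and Mrpl41 (-0.17, adjusted p = 0.115) were separated in the same way.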
